A study of Mus musculus with 16 samples.

Results

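Fatty acid oxidation was followed through 32 genes, chosen by name from the 23440 genes of the processed expression table: 29 genes of mitochondrial breakdown, its entry step, its electron acceptors and acyl-CoA thioesterases, and 3 genes of peroxisomal breakdown. Gastrocnemius muscle, the large calf muscle, came from 20-week-old male mice on the C57Bl6/J background, with 4 mice in each of 4 groups. KO mice carry the Il13-/- genotype, a deletion of the gene for interleukin-13, a cytokine of type 2 immunity. The groups were KO mice run daily on a treadmill for 5 weeks (KO trained), KO mice kept untrained (KO untrained), WT mice run in the same way (WT trained) and untrained WT mice (WT untrained). The muscle was sequenced as 1 bulk poly(A) library per mouse, so fewer fibres of a type and less RNA per fibre cannot be told apart. The series set out to compare the transcript response to endurance training with and without Il13.

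Long-chain fatty acids enter mitochondria as carnitine esters, and each turn of the β-oxidation spiral then removes a short acetyl unit through a dehydrogenase, a hydratase, a second dehydrogenase and a thiolase. Electrons from the first step pass through the electron-transfer flavoprotein to ubiquinone. Peroxisomes shorten very long and branched chains before mitochondria take them over. In skeletal muscle this pathway supplies much of the energy of prolonged low-intensity work, and oxidative fibres carry more of it than fast glycolytic fibres.

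Values are RPKM, reads per kilobase of gene scaled to the reads of the library, so levels can be set side by side between genes. All 32 genes were at or above 1 RPKM in at least 4 of the 16 libraries, the filter used for testing, which 10171 genes passed. The libraries held 16307025 to 20074677 reads, and 41 reads (Acad10) was the smallest count of any of these genes in a library apart from 29 for Acot1 and 35 for Decr2. Muscle identity was plain: Ckm, the muscle creatine kinase, was at 11741 RPKM or more in every library. Il13 itself gave 2 reads over the 4 KO trained libraries, 3 over the KO untrained libraries and 0 over both WT groups, too few to check the genotype labels. WT trained replicate 1 stood apart. It had the lowest weight of any library, 0.309, when libraries were weighted by their fit, and 83.5% of its reads fell in listed genes. The other WT trained libraries had 76.0 to 78.8% and the WT untrained libraries 79.9 to 83.3%. This share averaged 76.7% in KO trained, 79.9% in KO untrained, 78.6% in WT trained and 82.3% in WT untrained mice. It was thus lower with training in both genotypes, and fits that include it adjust for a measure that goes with training. Several counts of the 32 genes in the comparisons with WT trained mice are also given without WT trained replicate 1. So are WT training differences of the 32 genes that moved by more than 1.5 times.

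The genes spanned more than 2 orders of magnitude in level. Over all 16 libraries the highest mean levels per length were those of Hadhb (214 RPKM), Ech1 (177 RPKM), Acadm (158 RPKM) and Acadvl (144.98 RPKM), all enzymes of the mitochondrial spiral or its side reactions. The lowest were Acot1 (2.07 RPKM), Decr2 (1.35 RPKM) and Acad10 (0.988 RPKM). The 6 genes of the hydratase, hydroxyacyl dehydrogenase and thiolase steps made up 25.6 to 26.6% of the summed level in the 4 groups, the 7 acyl-CoA dehydrogenases 21.3 to 22.5% and the 3 peroxisomal genes 1.65 to 1.85%, so these shares differed little between groups. Peroxisomal activity is also known for Crat, Acad11, Eci2 and Ech1. These were counted under the other roles, so the peroxisomal share covers only the 3 genes placed there. Summed over all 32 genes, the level was 2249 ± 136 RPKM in KO trained, 2227 ± 234 in KO untrained, 2668 ± 305 in WT trained and 2172 ± 113 in WT untrained muscle (SD, n = 4 each). WT trained mice ranged above WT untrained mice without overlap, at 2360.0 RPKM or more against 2289 RPKM or less (without replicate 1 the WT trained mean was 2531 ± 163 RPKM, n = 3). The ranges of the KO groups overlapped each other and both WT groups, reaching 2373 RPKM in KO trained and 2548 RPKM in KO untrained mice.

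**Figure D1:**
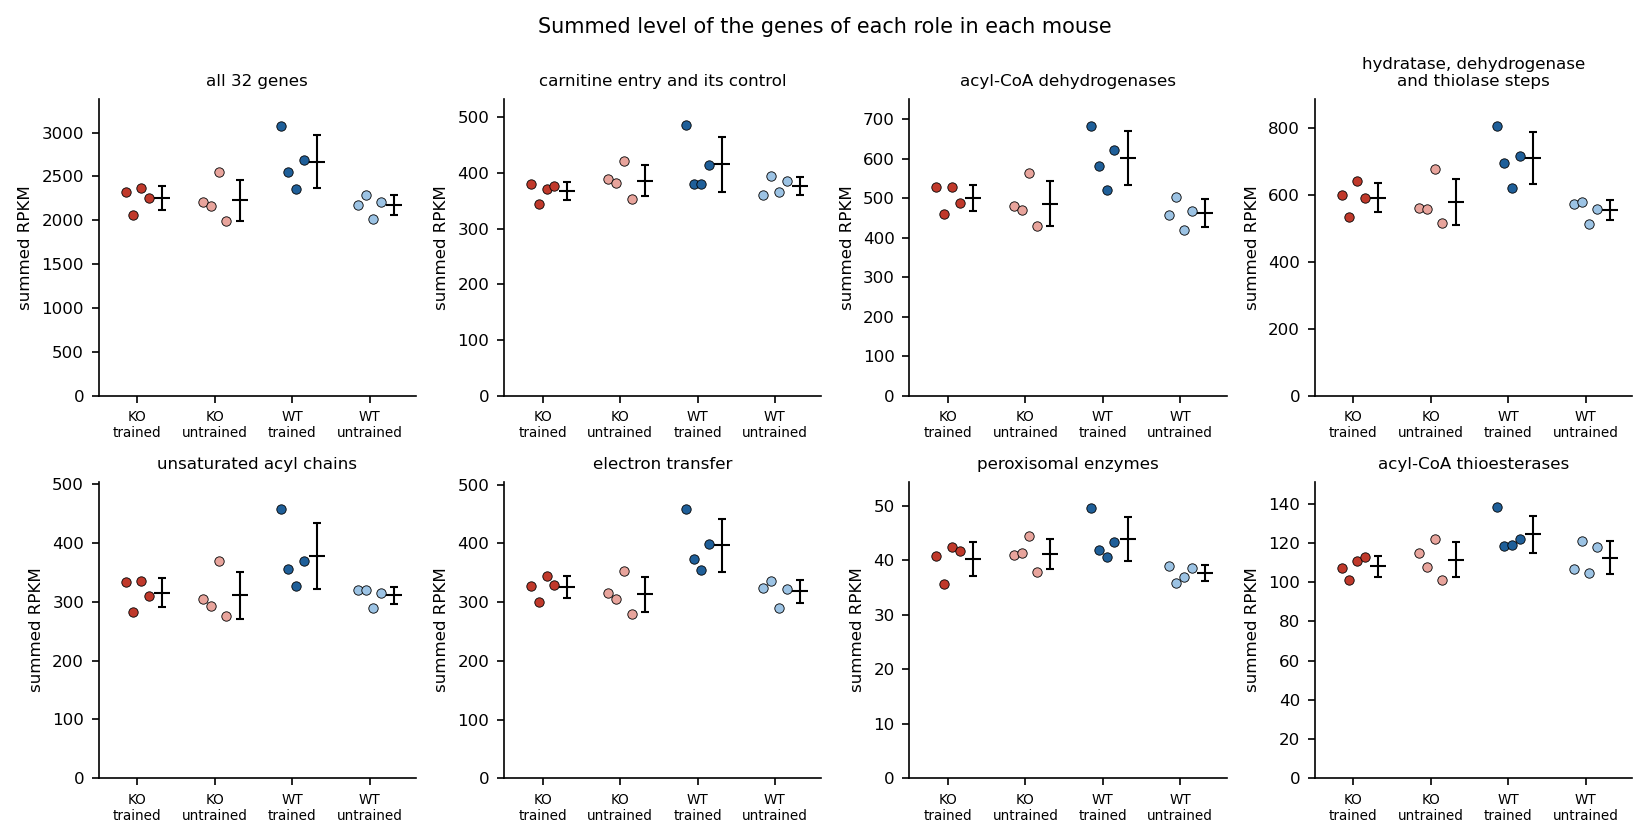
Summed RPKM (vertical axis, from 0) of all 32 fatty acid oxidation genes and of the genes of each role, with 1 point per mouse and the mean and SD beside the points, in KO trained, KO untrained, WT trained and WT untrained muscle. WT trained replicate 1 is the highest point of every panel. KO untrained replicate 3 lies above the lowest WT trained point in every panel except electron transfer. In the panel of all genes the KO groups overlap each other and both WT groups.

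Training in WT mice came with higher transcript levels along most of the mitochondrial spiral, by small amounts. Of the 32 genes, 30 had a log2 difference (log2(RPKM + 0.1), WT trained minus WT untrained) above 0, where 52.4% of all genes tested did, and the median was 0.23, against 0.01 over all genes. Only Etfa, the α subunit of the electron-transfer flavoprotein, passed an adjusted p of 0.05 in limma (Benjamini-Hochberg over all 10171 genes), where 0.187% of genes passed in either direction. At an unadjusted p under 0.05, 19 of the 32 were higher and 0 lower, against 6.11% and 5.71% of all genes. WT trained and WT untrained mice did not overlap for 15 of the 32, all higher in WT trained mice, against 3.76% of all genes higher and 2.62% lower. Without WT trained replicate 1, 26 of the 32 were above 0 and the median was 0.17. At an unadjusted p under 0.05, 13 genes were then higher and 1 lower (Hsd17b10), and 3 passed the adjusted threshold (Etfa, Hadha and Hadhb). The WT ranges then did not overlap for 15 higher and 1 lower, against 6.33% and 12.1% of all genes. Over all genes of that run 6.33% were higher and 12.4% lower at an unadjusted p under 0.05, and 67 higher and 205 lower passed, against 13 and 6 with it.

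In KO mice none of the 32 passed the adjusted threshold in limma, where 0 of 10171 genes did, and 0 of the 32 had an unadjusted p under 0.05 in either direction, against 13.7% of all genes. Their median log2 difference (KO trained minus KO untrained) was 0.05, against -0.06 over all genes, and values ran from -0.27 (Acad10) to 0.11 (Echs1). No gene of the 32 separated the KO groups without overlap, against 4.00% of all genes higher and 5.43% lower in KO trained mice. After quantile normalization or median-ratio scaling, 5 of the 32 were higher at an unadjusted p under 0.05, where 9.07% and 7.64% of all genes were. With the share of reads in listed genes in the fit, 31 of 32 were above 0, the median was 0.12 and 4 were higher at that p, against 3.90% of all genes. Without KO untrained replicate 4 the median turned to -0.02, and without KO untrained replicate 3 it was 0.10.

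The training responses were then compared directly, as the KO difference minus the WT difference. It was below 0 for 31 of 32 genes, where 38.4% of all genes were above 0, with a median of -0.21, against -0.05 over all genes. Acad9 was the exception, at 0.15. None passed the adjusted threshold in limma, nor did any of the 10171 genes, with a smallest adjusted p of 0.526 for any gene. At an unadjusted p under 0.05, 12 of the 32 were lower and 0 higher, against 6.05% and 2.35% of all genes. Without WT trained replicate 1, 28 of 32 were below 0 and the median was -0.16. In that run 9 were lower at an unadjusted p under 0.05, against 3.82% of all genes. Without KO untrained replicate 3 the median was -0.16 with 8 lower at that p, against 3.78%.

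**Figure D2:**
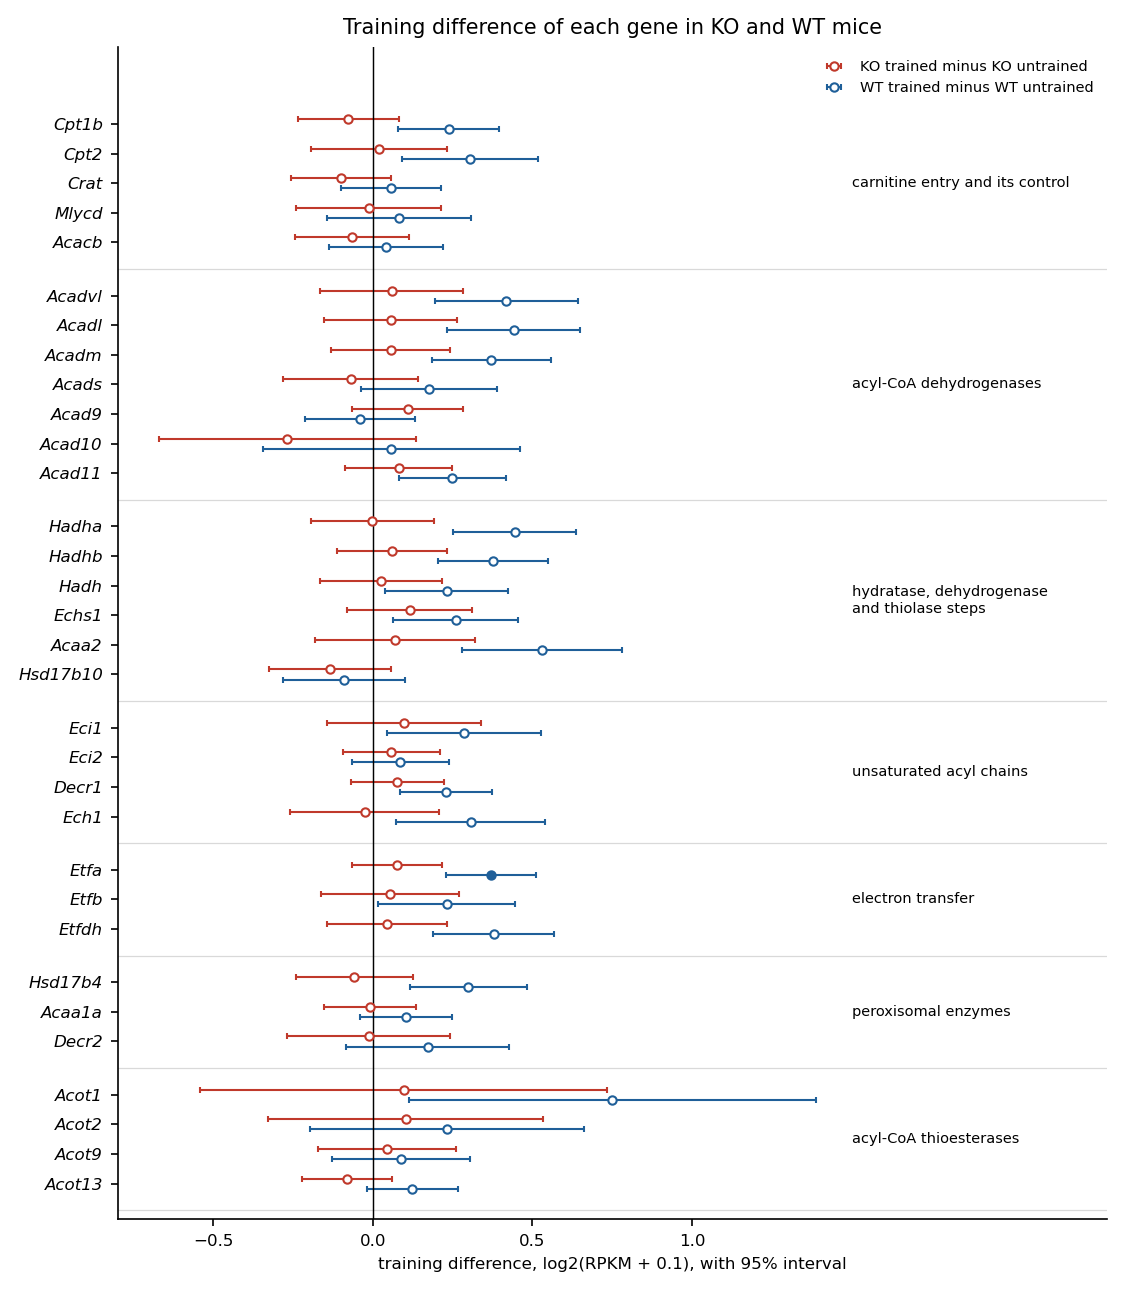
Training difference of each of the 32 genes on the log2(RPKM + 0.1) scale (horizontal axis) with its 95% interval from limma, in KO mice (trained minus untrained, red) and WT mice (trained minus untrained, blue), with genes grouped by role down the page. Filled points passed an adjusted p of 0.05, which in this plot is Etfa in WT mice alone, and 31 of 32 KO points lie left of their WT point.

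**Figure D3:**
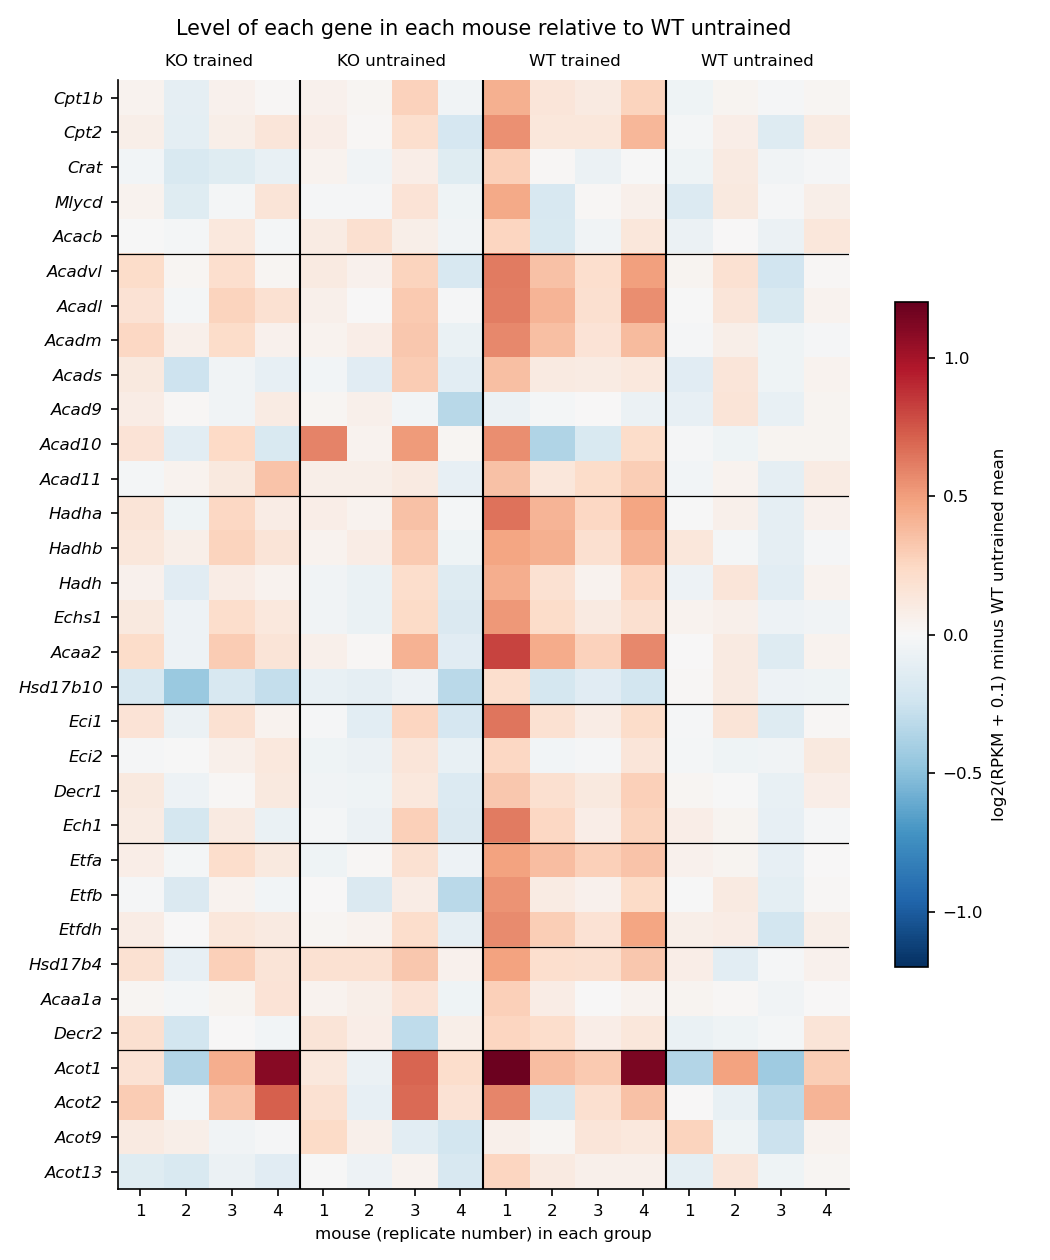
Log2(RPKM + 0.1) of each gene (rows, by role) in each mouse (columns, 4 per group) minus the mean of WT untrained mice, in red where higher and blue where lower. WT trained replicate 1 is the reddest column, with a median of 0.48 over the 32 genes, WT trained replicates 2 to 4 have medians of 0.16, 0.11 and 0.26, and KO untrained replicate 3 has 0.21.

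Carnitine entry and its control had the smallest median log2 training difference of the roles in WT mice, 0.08 over 5 genes. Cpt1b encodes the muscle form of carnitine palmitoyltransferase 1, which loads long-chain acyl groups onto carnitine at the outer membrane. Its level was 119.1, 107.4, 119.7 and 117.04 RPKM in KO trained mice and 119.7, 117.8, 140.3 and 112.1 RPKM in KO untrained mice. In WT trained mice it was 155.4, 127.9, 124.5 and 139.00 RPKM, against 111.8, 118.2, 114.7 and 117.5 RPKM in WT untrained mice. All 4 WT trained mice lay above all 4 WT untrained mice, whereas the KO groups overlapped. The log2 training difference was 0.24 ± 0.08 (SE) in WT mice (limma, adjusted p = 0.189) and -0.08 ± 0.08 in KO mice (adjusted p = 0.651), and the difference between them was -0.31 (95% interval -0.54 to -0.09, adjusted p = 0.526). Cpt2, which returns the acyl group to coenzyme A inside the mitochondrion, averaged 29.2 ± 2.25 RPKM in KO trained, 28.9 ± 3.26 in KO untrained, 35.2 ± 5.11 in WT trained and 28.3 ± 2.28 in WT untrained mice. Crat, which swaps short acyl groups with carnitine, Acacb, which makes the CPT1 inhibitor malonyl-CoA, and Mlycd, which breaks malonyl-CoA down, had WT log2 differences of 0.06, 0.04 and 0.08, and without WT trained replicate 1 these were -0.02, -0.03 and -0.04.

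Among the acyl-CoA dehydrogenases, which take the first step of each turn, those for very long, long and medium chains had larger WT differences than the short-chain enzyme. The log2 training differences in WT mice were 0.42 for Acadvl, 0.44 for Acadl, 0.37 for Acadm and 0.18 for Acads, with limma adjusted p of 0.0897, 0.0559, 0.0679 and 0.524, and the difference between genes was not tested. Without WT trained replicate 1 Acads was at 0.11. Acadl had 138.4, 120.1, 147.2 and 138.6 RPKM in KO trained mice and 127.9, 122.9, 152.4 and 121.2 RPKM in KO untrained mice. It had 187.3, 161.9, 139.9 and 179.6 RPKM in WT trained mice, against 122.2, 135.4, 107.6 and 125.7 RPKM in WT untrained mice. The WT groups did not overlap, with WT trained replicate 3 closest to the untrained mice, and KO untrained replicate 3 was the highest KO value. In KO mice the log2 difference was 0.06 (95% interval -0.15 to 0.26), and KO minus WT was -0.39 (limma, adjusted p = 0.529). Acad11, a family member that is less studied, had a WT difference of 0.25 with WT groups apart. Acad9, which is better known for the assembly of respiratory complex I, was at -0.04 in WT mice, and Acad10 was at 0.06 with an SE of 0.19 in WT mice, the sign of which turned under quantile normalization (-0.02) and without WT trained replicate 1 (-0.11). Acad10 shares 96.8% of 1106 transcript bases with its neighbour in sequence Acad12, which averaged 8.33 RPKM, so its own reads are uncertain.

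Hadha and Hadhb, the α and β subunits of the mitochondrial trifunctional protein, stand next to each other and are read in opposite directions. Their promoter windows in the RefSeq table overlap by 228 bases, and the annotated start sites are 273 bases apart. The Hadha window, which therefore holds most of the Hadhb window on the other strand, is shown because both genes had similar WT training differences. It lies at chr5:30154931-30155230 on the minus strand (GRCm38.p6, RefSeq), from 250 bases before the start site to 50 bases after it, and has no capitals because it holds no match to the motifs given with the electron-transfer genes.
Hadha promoter: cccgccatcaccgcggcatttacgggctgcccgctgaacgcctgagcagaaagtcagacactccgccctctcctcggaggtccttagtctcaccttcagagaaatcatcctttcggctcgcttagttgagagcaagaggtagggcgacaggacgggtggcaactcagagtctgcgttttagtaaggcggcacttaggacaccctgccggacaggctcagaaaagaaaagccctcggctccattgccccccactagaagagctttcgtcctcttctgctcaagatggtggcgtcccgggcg

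Hadha, which carries the hydratase and hydroxyacyl dehydrogenase activities for long chains, had 101.8, 87.99, 108.5 and 97.5 RPKM in KO trained mice and 96.4, 93.98, 116.6 and 90.1 RPKM in KO untrained mice. WT trained mice had 143.4, 120.9, 108.3 and 127.2 RPKM, against 91.1, 95.4, 84.8 and 94.5 RPKM in WT untrained mice. Every WT trained mouse was above every WT untrained mouse, and 3 of the 4 were above every KO mouse. Its log2 training difference was 0.44 ± 0.09 (SE) in WT mice (limma, adjusted p = 0.0508) and -0.00 in KO mice, with a 95% interval of -0.19 to 0.19. The KO minus WT difference, -0.45 ± 0.13 (limma, adjusted p = 0.526), had the smallest p of the 32 genes. Hadhb, the thiolase subunit, averaged 212 ± 12.5 RPKM in KO trained, 204 ± 22.8 in KO untrained, 247 ± 20.9 in WT trained and 190.4 ± 13.7 in WT untrained mice, with log2 differences of 0.06 in KO and 0.38 in WT mice (limma, adjusted p = 0.0547 in WT).

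Of the other genes of these steps, Acaa2, the mitochondrial 3-ketoacyl-CoA thiolase, had a WT difference of 0.53 ± 0.12 (SE, limma adjusted p = 0.0567), the largest of the mitochondrial genes other than thioesterases. It averaged 96.5 ± 10.2 RPKM in KO trained, 92.5 ± 15.7 in KO untrained, 126 ± 19.6 in WT trained and 86.5 ± 6.46 in WT untrained mice. Echs1, the short-chain hydratase, and Hadh, the medium- and short-chain hydroxyacyl dehydrogenase, had WT differences of 0.26 and 0.23, and Echs1 was at 0.17 without WT trained replicate 1. Hsd17b10 was below 0, at -0.14 in KO and -0.09 in WT mice, or -0.19 in WT mice without replicate 1. Its enzyme works mainly in isoleucine breakdown and it is also a subunit of mitochondrial RNase P.

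**Figure D4:**
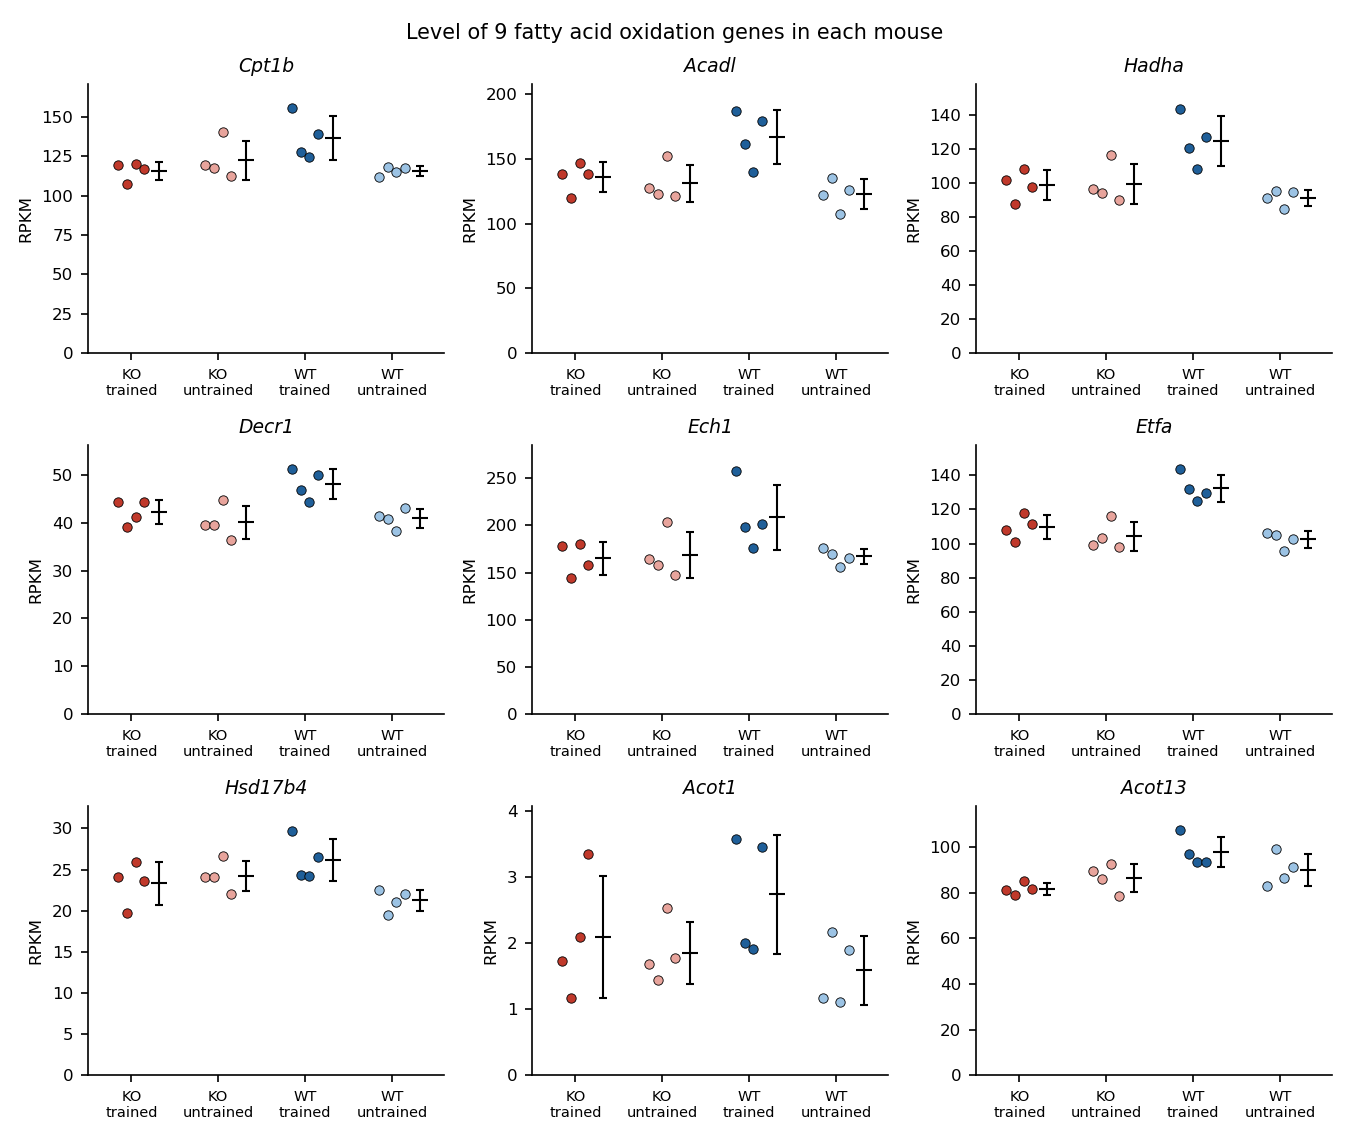
RPKM (vertical axis, from 0) of 9 genes in each mouse, 1 point per mouse with the mean and SD beside the points, in KO trained, KO untrained, WT trained and WT untrained muscle. Etfa, Hadha, Acadl, Cpt1b, Decr1 and Hsd17b4 separate the WT groups, Ech1 does so with ranges that touch at 176 RPKM, and for Acot13 the KO trained mice lie below all WT trained mice.

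Unsaturated fatty acids need helper enzymes that move or reduce double bonds. Decr1, the mitochondrial 2,4-dienoyl-CoA reductase, had 44.3, 39.1, 41.2 and 44.3 RPKM in KO trained mice and 39.7, 39.6, 44.7 and 36.5 RPKM in KO untrained mice. In WT trained mice it had 51.3, 46.8, 44.3 and 50.04 RPKM, against 41.5, 40.9, 38.4 and 43.2 RPKM in WT untrained mice, a log2 difference of 0.23 ± 0.07 (SE, limma adjusted p = 0.160). The WT groups did not overlap, and the KO groups did. Ech1, a dienoyl-CoA isomerase, had 178.5, 144.2, 180.1 and 157.9 RPKM in KO trained mice and 164.8, 158.6, 203.7 and 147.7 RPKM in KO untrained mice. Its WT trained values were 258.1, 198.1, 176.3 and 201.5 RPKM, against 176.3, 170.2, 156.4 and 165.5 RPKM in WT untrained mice, with replicate 1 far above the other trained mice, and the log2 difference was 0.31, or 0.20 without that mouse. KO minus WT was -0.33 for Ech1 (limma, adjusted p = 0.593). The enoyl-CoA isomerases Eci1 and Eci2 had WT differences of 0.28 and 0.09, and without WT trained replicate 1 of 0.17 and 0.03.

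Electron transfer had the highest median WT difference of the roles, 0.37 over 3 genes, and held the only gene to pass the test. Etfa and Etfb encode the subunits of the flavoprotein that collects electrons from the acyl-CoA dehydrogenases, and Etfdh passes them to ubiquinone. Etfa had 108.1, 100.9, 118.2 and 111.3 RPKM in KO trained mice and 98.8, 103.2, 116.4 and 98.2 RPKM in KO untrained mice. It had 143.4, 131.9, 124.7 and 129.7 RPKM in WT trained mice, against 106.3, 104.9, 95.6 and 102.7 RPKM in WT untrained mice. The WT trained values were above every value of the other 3 groups, which overlapped one another. Etfa rose with training in WT mice by 0.37 ± 0.07 (SE) on the log2 scale, or 1.29-fold (limma, adjusted p = 0.0365), and in KO mice the difference was 0.07 (95% interval -0.07 to 0.22, adjusted p = 0.614). The call was lost in 11 of 27 alternative runs, 9 of them runs without 1 library, with adjusted p between 0.00485 and 0.135, while the log2 difference stayed between 0.33 and 0.41. Averaged over genotypes, Etfa rose with training by 0.22 (limma, adjusted p = 0.0463), where 0.777% of genes passed, a call lost in 15 of 26 runs. The response itself was not shown to differ by genotype: KO minus WT was -0.30 ± 0.09 (SE, limma, adjusted p = 0.526).

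Exons of Hadha, Etfdh, Crat, Acadvl, Echs1, Eci2, Acaa1a and Acad11 overlap other annotated genes on the opposite strand, and those of Cpt1b, Etfb, Acad9 and Acad11 overlap genes on the same strand. How the counting treated strand is not stated in the material used here, so these values are uncertain to that extent. Near-identical copies elsewhere add the same doubt for Acaa1a, Acot9 and Eci2. Etfdh averaged 79.7 ± 3.06 RPKM in KO trained, 77.5 ± 7.01 in KO untrained, 98.1 ± 11.9 in WT trained and 75.3 ± 7.44 in WT untrained mice. Its log2 training difference was 0.04 in KO and 0.38 in WT mice (limma, adjusted p = 0.0679 in WT). Etfb averaged 136 ± 8.41 RPKM in KO trained, 132 ± 16.8 in KO untrained, 166 ± 26.8 in WT trained and 140.4 ± 8.73 in WT untrained mice, with differences of 0.05 in KO and 0.23 in WT mice, or 0.13 in WT mice without replicate 1. The WT ranges of Etfb overlapped, with WT trained replicate 1 highest, at 204 RPKM.

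The promoters of these 3 genes, whose products work as 1 relay, were read for the motifs of factors known to act on oxidative genes. The motifs were TNAAGGTCA for oestrogen-related receptors, GGTCANAGG for the centre of the PPAR direct repeat and GCGCANGCG for the centre of the NRF1 site, on both strands, and matches are in capitals. Windows run from 250 bases before the RefSeq start site to 50 bases after it (GRCm38.p6): Etfa at chr9:55512194-55512493 on the minus strand, Etfb at chr7:43443822-43444121 on the plus strand and Etfdh at chr3:79628718-79629017 on the minus strand.
Etfa promoter: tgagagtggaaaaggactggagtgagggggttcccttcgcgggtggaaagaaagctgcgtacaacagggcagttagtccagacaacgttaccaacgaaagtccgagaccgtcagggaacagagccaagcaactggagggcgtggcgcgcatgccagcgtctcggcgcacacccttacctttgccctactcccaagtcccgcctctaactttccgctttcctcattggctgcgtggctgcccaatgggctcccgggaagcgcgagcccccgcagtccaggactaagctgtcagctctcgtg
Etfb promoter: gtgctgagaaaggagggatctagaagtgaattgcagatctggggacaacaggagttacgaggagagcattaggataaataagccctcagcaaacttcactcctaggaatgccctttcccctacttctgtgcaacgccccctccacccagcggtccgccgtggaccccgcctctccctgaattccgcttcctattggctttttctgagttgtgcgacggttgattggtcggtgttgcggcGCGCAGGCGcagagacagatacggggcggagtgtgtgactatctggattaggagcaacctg
Etfdh promoter: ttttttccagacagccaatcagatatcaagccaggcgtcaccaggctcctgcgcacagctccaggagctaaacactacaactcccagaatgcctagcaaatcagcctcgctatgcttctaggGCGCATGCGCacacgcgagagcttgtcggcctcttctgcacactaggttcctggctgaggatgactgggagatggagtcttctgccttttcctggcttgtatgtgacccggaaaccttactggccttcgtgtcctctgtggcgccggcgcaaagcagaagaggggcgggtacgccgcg

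Etfdh holds the NRF1 centre on both strands of 1 overlapping site, 128 bases before the start, Etfb holds it 11 bases before the start, and Etfa has no match to the 3 motifs. Over the 25 of 32 genes with a window in the table, 4 held the NRF1 centre (Acad10, Acadm, Etfb and Etfdh), or 16%, against 15.1% of 7680 windows of tested genes and 6.47% of all 27025. The receptor element and the PPAR centre were found in 0 of the 25, against 0.703% and 1.54% of the windows of tested genes. The share with the NRF1 centre is thus near that of tested genes as a whole. Acaa2, Cpt1b, Hsd17b4, Crat, Decr1, Acot13 and Acad9 were not among the 25.

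Peroxisomal genes had a median WT difference of 0.17 over 3 genes. Hsd17b4 encodes the D-bifunctional protein, which performs the middle steps on very long and branched chains. It had 24.1, 19.7, 25.9 and 23.6 RPKM in KO trained mice and 24.05, 24.1, 26.6 and 22.1 RPKM in KO untrained mice. In WT trained mice it had 29.7, 24.4, 24.3 and 26.5 RPKM, against 22.5, 19.4, 21.1 and 21.97 RPKM in WT untrained mice. The WT groups were apart, while the KO values overlapped both WT groups. Its WT training difference was 0.30 ± 0.09 (SE, limma adjusted p = 0.140), and it alone of the 32 had an unadjusted p under 0.05 between KO and WT untrained mice, at 0.19 higher in KO (limma, adjusted p = 0.780), where 6.20% of all genes had one. Acaa1a, the peroxisomal thiolase, and Decr2, the peroxisomal dienoyl-CoA reductase, had WT differences of 0.11 and 0.17 with overlapping groups, Acaa1a at 0.04 without WT trained replicate 1, and Decr2 was near the filter at 1.04 to 1.58 RPKM.

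Acyl-CoA thioesterases release free fatty acids from coenzyme A, in the cytosol (Acot1) or mitochondria (Acot2, Acot9 and Acot13). Acot1 had the largest WT difference of the 32 genes, 0.75, and the largest SE, 0.30 (limma, adjusted p = 0.323). It had 1.73, 1.18, 2.09 and 3.36 RPKM in KO trained mice and 1.68, 1.44, 2.53 and 1.77 RPKM in KO untrained mice. Values were 3.58, 2.00, 1.92 and 3.46 RPKM in WT trained mice, against 1.17, 2.17, 1.11 and 1.89 RPKM in WT untrained mice. These ranges overlapped in both genotypes and rest on 29 to 98 reads per library, and Acot1 shares 97.3% of 669 transcript bases with Acot2, so the split of reads between them is uncertain. Acot13 had 81.3, 78.99, 85.4 and 81.6 RPKM in KO trained mice and 89.7, 85.9, 92.6 and 78.6 RPKM in KO untrained mice. It had 107.8, 97.1, 93.8 and 93.6 RPKM in WT trained mice, against 82.9, 99.3, 86.5 and 91.5 RPKM in WT untrained mice. The KO trained mice lay below all WT trained mice, and training differences in either genotype stayed within overlapping ranges (0.12 in WT, limma adjusted p = 0.503, and 0.08 without WT trained replicate 1). Acot2 and Acot9 had WT differences of 0.23 and 0.09, and Acot2 was at 0.11 without that replicate.

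Between genotypes, trained KO mice had lower levels of most of these genes than trained WT mice, though none passed the adjusted threshold in limma, where 0.0885% of all genes did. The log2 difference (KO trained minus WT trained) was below 0 for 30 of 32 genes, where 34.8% of all genes were above 0, with a median of -0.21, against -0.05 over all genes. At an unadjusted p under 0.05, 17 of the 32 were lower and 0 higher, against 9.65% and 4.21% of all genes, and 11 were lower without WT trained replicate 1, against 4.54%. Without KO trained replicate 2 the number was 10, against 5.62%. Over both training states 0 of the 32 passed between genotypes, where 0.0787% of genes did. The KO trained and WT trained ranges did not overlap for Etfa, Etfb, Etfdh, Acot13 and Cpt1b, all lower in KO mice, where 5.86% of all genes were lower and 2.63% higher without overlap. That count was 16 without WT trained replicate 3, against 8.28% of all genes, 10 without KO trained replicate 3, against 8.81%, and 8 without KO trained replicate 1, against 8.16%. Without WT trained replicate 1 it was 5, against 6.36%. The electron-transfer differences were -0.27 for Etfa, -0.28 for Etfb and -0.29 for Etfdh (adjusted p from 0.183 to 0.260), and Acot13 and Cpt1b were at -0.26 and -0.24. This comparison shares its trained WT mice with the WT training comparison, so they are not independent. In untrained mice the median difference between KO and WT was 0.02, which single libraries turned: -0.02 without KO untrained replicate 3 and -0.01 without WT untrained replicate 3, with 14 of 32 above 0 in each, and 0.07 without KO untrained replicate 4, with 28 above 0. With all libraries 20 of 32 genes were above 0, where 51.4% of all genes were, and none of the 32 passed the adjusted threshold in limma, where 0.0492% of all genes did. None of the 32 separated the untrained groups, where 1.58% of all genes were higher and 2.37% lower without overlap.

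Other genes around the pathway were read from a list of 58, of which 48 passed the filter. In WT training 1 of the 48 rose and 0 fell in limma, 10 were higher and 4 lower at an unadjusted p under 0.05, against 6.11% and 5.71% of all genes, and the median log2 difference was 0.08. In KO training none passed, 2 were higher and 2 lower at an unadjusted p under 0.05, where 13.7% of all genes were one or the other, and the median was -0.02. The gene that rose was Acsl1, the main long-chain acyl-CoA synthetase of muscle, which primes fatty acids for the carnitine step. It had 109.97, 99.6, 118.3 and 110.9 RPKM in KO trained mice and 105.2, 102.8, 120.2 and 91.1 RPKM in KO untrained mice. In WT trained mice it had 140.9, 118.4, 127.5 and 130.3 RPKM, against 92.2, 102.6, 79.3 and 99.8 RPKM in WT untrained mice. Its log2 difference was 0.47 ± 0.09 (SE, limma, adjusted p = 0.0435) in WT and 0.07 in KO mice (adjusted p = 0.742), and KO minus WT was -0.40 (limma, adjusted p = 0.526). The WT call was lost in 13 of 27 alternative runs, with adjusted p from 0.00549 to 0.161.

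Acsl6, another acyl-CoA synthetase, differed by genotype. It had 13.3, 12.8, 12.4 and 12.99 RPKM in KO trained mice, against 10.01, 9.71, 8.09 and 9.14 RPKM in WT trained mice, and 13.4, 13.2, 13.8 and 14.03 RPKM in KO untrained mice, against 12.8, 10.4, 10.4 and 9.97 RPKM in WT untrained mice. KO mice were above WT mice without overlap in both training states. Averaged over training states Acsl6 was 0.40 ± 0.06 (SE) log2 higher in KO mice (limma, adjusted p = 0.00263), and it passed in all 26 alternative runs. In trained mice it was 0.48 higher (limma, adjusted p = 0.0229), a call lost in 7 of 27 runs with adjusted p up to 0.144, and in untrained mice 0.33 higher (adjusted p = 0.655). Acsl6 lies on chromosome 11, as does Il13, at 54303824 to 54361539 against 53631323 to 53634702 in the table's mm10 coordinates. The part of this closeness to the deleted gene in the Acsl6 difference was not tested.

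The genes of the list with the next smallest p did not pass. In WT training they were Prkag3, the muscle γ3 subunit of AMP-activated kinase (log2 -0.31, limma adjusted p = 0.0889), and Phyh, the peroxisomal phytanoyl-CoA hydroxylase (0.31, adjusted p = 0.0897). In KO training they were Prkaa2, a catalytic subunit of the same kinase (0.23, limma, adjusted p = 0.227), Ppard, a nuclear receptor for fatty acids (-0.33, adjusted p = 0.246), and Acsl4 (0.30, adjusted p = 0.317). For the difference of responses they included Ppara (-0.78) and Acsl1, each with a limma adjusted p of 0.526. Ppara, the receptor through which fatty acids raise many oxidation genes, averaged 3.56 ± 0.478 RPKM in KO trained, 4.33 ± 0.991 in KO untrained, 4.25 ± 0.687 in WT trained and 2.92 ± 0.471 in WT untrained mice. The classical fatty-acid responsive genes Pdk4, Ucp3 and Angptl4 overlapped between trained and untrained mice in both genotypes. Of the 7 genes listed with them, Ppara alone separated the WT groups, where 3.76% of all genes were higher without overlap. It had 3.56 to 5.16 RPKM in WT trained and 2.26 to 3.33 in WT untrained mice. Ppard alone separated the KO groups, where 5.43% of all genes were lower. It had 6.40 to 8.39 RPKM in KO trained and 8.62 to 10.1 in KO untrained mice.

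Markers of oxidative fibres were higher with training in WT mice too. The summed level of 10 genes of slow and type 2A fibres ran from 641 to 1418 RPKM in KO trained, 789 to 1382 in KO untrained, 1254 to 1654 in WT trained and 671 to 938 in WT untrained mice. All 10 were above 0 in the WT training difference, with a median of 1.20, and Myh2, the type 2A myosin, rose by 0.72 (limma, adjusted p = 0.0365), a call lost in 7 of 27 runs. In KO training 1 of the 10 was above 0, with a median of -0.24. The untrained groups were not level to begin with: all 10 were above 0 in KO against WT untrained mice, with a median of 0.56, though none passed the test. The 2 KO mice with the highest fibre sums, KO trained replicate 3 (1418 RPKM) and KO untrained replicate 3 (1382 RPKM), also had the highest fatty acid oxidation sums of their groups, 2373 and 2548 RPKM. WT trained replicate 1 likewise had the highest fibre sum and the highest oxidation sum of its group, 1654 and 3079 RPKM. Some other mice did not line up. WT trained replicate 3 had a fibre sum of 1513 RPKM and the lowest oxidation sum of its group, 2360.0 RPKM. WT untrained replicate 1 had the highest fibre sum of its group, 938 RPKM, and an oxidation sum of 2178 RPKM, the third of 4. The part of fibre type in the differences of the 32 genes was not tested.

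**Figure D5:**
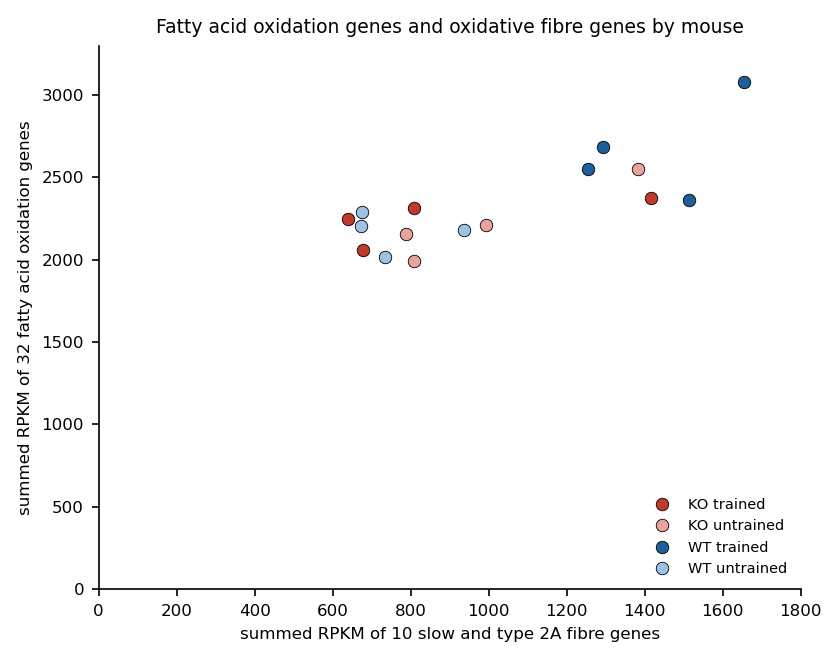
Summed RPKM of the 32 fatty acid oxidation genes (vertical axis, from 0) against the summed RPKM of 10 slow and type 2A fibre genes (horizontal axis, from 0), with 1 point per mouse coloured by group. The 4 WT trained mice and replicate 3 of each KO group lie at 1254 RPKM or more on the horizontal axis, and all other mice lie at 994 RPKM or less.

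Other marker lists were summed in the same way. The 7 fast-fibre genes, of types 2B and 2X, summed to 51098 to 56046 RPKM in KO trained, 55919 to 57125 in KO untrained, 50490 to 55442 in WT trained and 61296 to 67539 in WT untrained mice. WT untrained mice thus lay above WT trained mice and above both KO groups without overlap. By gene, 6 of the 7 were below 0 in WT training (median log2 difference -0.26), 5 in KO training (-0.05) and 6 in KO against WT untrained mice (-0.12). Myh1, the type 2X myosin, averaged higher in trained mice, at 773 against 474 RPKM in WT and 619 against 524 RPKM in KO mice. The 10 general muscle fibre genes include Actn3, Mylpf and Tnnt3 of the fast-fibre list, so these lists are not independent. They summed to 65878 to 72740 RPKM in KO trained, 72373 to 75696 in KO untrained, 65394 to 77577 in WT trained and 77764 to 85563 in WT untrained mice. WT untrained mice again lay above the other groups without overlap. By gene, 9 of 10 were below 0 in WT training (median -0.20) and 10 of 10 in KO against WT untrained mice (-0.12). Mb, the myoglobin gene, averaged higher in WT training, at 2354 against 1578 RPKM. The 7 tendon genes summed to 89.9 to 200.4 RPKM in KO trained, 134 to 226 in KO untrained, 187 to 241 in WT trained and 113 to 142 in WT untrained mice, and 5 of the 6 tested were above 0 in WT training. The 9 white adipocyte genes summed to 931 to 1573 RPKM in KO trained, 1113 to 1775 in KO untrained, 1021 to 1325 in WT trained and 1187 to 1399 in WT untrained mice, overlapping in every pair of groups. Most of each sum was Car3, which averaged 815, 877, 757 and 950 RPKM in these groups in the same order. Fabp4 followed, at means of 290 to 337 RPKM, so the overlap of the sums says little about the other genes of the list. By gene, 0 of the 9 were above 0 in KO training (median log2 difference -0.61), 8 of 9 in WT training (0.27) and 8 of 9 in KO against WT untrained mice (0.73), and none passed the test. Ucp1, the defining gene of brown fat, was at 0 in every library. The summed levels of the marker lists for endothelium, macrophages, fibroblasts, nerve and smooth muscle overlapped between trained and untrained WT mice. In KO mice the nerve list did not overlap, at 21.8 to 33.5 RPKM in KO trained and 34.5 to 88.5 RPKM in KO untrained mice. The part of tendon, fat, nerve and muscle fibre markers in the results was not tested.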

How the data were processed

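A poly(A) RNA library was made from the gastrocnemius of each of 16 mice, with a stranded mRNA kit per the labels' protocols. The authors deposited 1 table of RPKM values per gene and library, per the file headers. Reads were placed on mm10, per the submitters' processing notes, and the aligner, the counting tool and the annotation version were not given in the sources used here. Solving the RPKM steps gave the total reads of each library, 16307025 to 20074677, which set the precision of low genes. Groups were taken from the labels. Genes at 1 RPKM or more in 4 or more libraries were tested as log2(RPKM + 0.1) with limma 3.58.1 in R 4.3.3, in 1 fit over the 4 groups with a mean-variance trend and robust shrinkage, and p-values were adjusted by Benjamini-Hochberg over all genes tested. Fold changes of low genes are understated by the added 0.1. The fit was tested on simulated data. The 32 genes and all lists were chosen with earlier results of these data known. Values per mouse are given for genes past the threshold and, in each role, for those with the smallest p in WT training and in the difference of responses. Other pathway genes are named if past the threshold or among the 3 with the smallest p, and 1 gene that this rule names is not reported here. The 27 alternatives covered pseudocounts, filters, normalization, weights, recovered reads and 16 runs without 1 library. Promoters and motifs came from RefSeq (GRCm38.p6), and near-identical copies were found with BLAST+ 2.17.0.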

Additional observations from a re-analysis of the deposited data

Results flagged for a closer look

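Of 128 groups of 4 mice, 7 held a mouse whose gap to the nearest other, as a share of the group's range, passed Dixon's 95% critical value, and chance alone flags about 1 in 20 groups. WT trained replicate 1 was above its group for Acads, at 52.1 RPKM against 43.4 to 44.4, and for Hsd17b10, at 47.2 RPKM against 35.2 to 37.2. KO untrained replicate 3 was above its group for Mlycd, at 52.96 RPKM against 45.7 to 46.7, and for Eci2, at 37.3 RPKM against 31.6 to 32.5. KO trained replicate 3 had 51.9 RPKM of Acacb, against 46.9 to 47.6 in the other mice of its group. KO untrained replicate 4 had 16.1 RPKM of Acad11, against 18.2 to 18.6, and WT untrained replicate 3 had 64.2 RPKM of Etfdh, against 78.6 to 79.7.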

How the results depend on the processing

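How many of the 32 genes pass in WT training depends on the processing, and the cause was not tested. The count, with the share of all genes called in brackets, was 1 as reported (0.187%), 2 with a pseudocount of 1 (0.383%), 0 with no filter on low values (0.0172%), 5 of 29 tested with a filter at 5 RPKM (1.01%), 12 after quantile normalization (1.52%), 9 after median-ratio scaling (1.5%), 8 with weights per library (3.23%), 4 with voom on recovered reads (0.629%) and 6 (0.767%) with a covariate for how many reads fell in listed genes, an alternative chosen after seeing the data. Leaving out 1 library gave 0 to 6. With the replicate block the count was 0 (0.157%). By the rule that every pair must correlate above 0.1, replicate numbers did not pair the mice: 6 of 24 same-numbered pairs did. In KO mice the 4 trained and untrained pairs came closest, at 0.149, 0.191, 0.442 and 0.052, and in KO training 0 of the 32 passed with the block. Over all genes, WT training gave 19 calls, 6 of them lower, as reported, then 155 with 53 lower after quantile normalization, 153 with 71 lower after median-ratio scaling and 329 with 220 lower with weights. For training averaged over genotypes, reported as 1, the count was 0 with no filter (0.155%), with the replicate block (0.305%) and with the covariate (0%), 12 after quantile normalization (2.48%), 11 after median-ratio scaling (2.72%), 6 with weights (11.3%, or 1152 genes), and 0 to 3 without 1 library. The median log2 difference with the covariate was 0.37 in WT training and 0.24 averaged over genotypes. In the other comparisons no gene of the 32 passed under any alternative run. Near 0, signs turned. In KO training Cpt1b was 0.017 with the covariate, and Hadha was 0.046 after quantile normalization, 0.045 after median-ratio scaling, 0.012 with weights and 0.079 with the covariate. In WT training, weights gave -0.0048 for Crat, -0.017 for Acacb and -0.058 for Acad10, quantile normalization gave -0.021 for Acad10, and the covariate gave 0.045 for Acad9 and 0.082 for Hsd17b10. Without 1 library, KO training ran from -0.047 to 0.078 for Hadha, -0.020 to 0.12 for Etfb and -0.0052 to 0.10 for Etfdh. WT training ran from -0.023 to 0.10 for Crat, -0.040 to 0.17 for Mlycd, -0.033 to 0.12 for Acacb, -0.072 to 0.012 for Acad9 and -0.11 to 0.20 for Acad10. Depth limits Acot1, Decr2 and Acad10, each under 100 reads in every library.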
